A study of Mus musculus with 23 samples.

Results

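The Tudor domain germ granule genes are a named set of 8 mouse genes, Tdrd1, Tdrd3, Tdrd5, Tdrd6, Tdrd7, Tdrd9, Tdrkh and Rnf17, read here in sorted testis cells. Each gene was taken by the probe set that carries its symbol alone and has the highest mean over the wild-type arrays. Of the 8 genes, 7 had such a probe set, out of 18193 genes measured in this way, and all 7 passed the filter on low values. Tdrd6, which builds the chromatoid body of spermatids, had none and was not analysed here.

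Tudor domains are folds that bind methylated arginine. In germ cells the ligands are mainly PIWI proteins, whose arginines are methylated by PRMT5 and its partner WDR77, and the Tudor proteins gather PIWI proteins, their small RNAs (piRNAs) and RNA helicases into granules without a membrane. In spermatocytes these granules sit between mitochondria. In round spermatids they condense into a single perinuclear granule, the chromatoid body.

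The study measured RNA on Affymetrix arrays in testis cells sorted by fluorescence after Hoechst staining. The 3 Spo11-/- arrays covered spermatogonia, pre-leptotene and leptotene/zygotene cells, with 1 array each, from mice that lack the enzyme that cuts DNA to start meiotic recombination. Cells for each of these arrays were pooled from 2 collections, of 4 and 3 mice, and the labels give no strain for them. The labels do not tie arrays to mice, so the 3 Spo11-/- arrays may share mice. The genotype fit took these arrays as independent, and its p-values carry that limit. The 20 wild-type arrays came from C57BL/6J x DBA/2J F1 males and covered spermatogonia (4 arrays), pre-leptotene (3), leptotene/zygotene (3), early pachytene (1), mid-pachytene (2), late pachytene (1), diplotene (2) and round spermatid cells (4). All mice were males of 10 to 16 weeks. Arrays of 1 wild-type fraction are labelled as biological replicates, with no word on which mice each came from, and the p-values cover only the spread among them.

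Levels below are log2(intensity + 1) of the deposited GCRMA values, where 4 was the lowest level counted as measured, and a fold on this scale understates the change of low genes. Levels are compared within a probe set and never between genes. A gene was called changed where limma gave an adjusted p below 0.05 and a log2 change of at least 1, with p-values adjusted over the 13087 genes of the wild-type fit or the 11980 genes of the genotype fit. In RNA from whole sorted fractions, fewer cells of a type and less RNA per cell cannot be told apart.

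The labels were set against marker genes. By medians per array, 7 spermatogonia markers overlapped between wild-type spermatogonia (10.60 to 11.48) and leptotene/zygotene arrays (10.64 to 11.89). Markers of meiotic entry to zygotene overlapped as well, at 8.97 to 10.24 and 8.64 to 9.62. Pachytene markers did separate these fractions by medians, at 8.36 to 9.40 and 9.93 to 11.67, but their summed intensities overlapped (6058 to 24218 and 14143 to 35388). Their medians in pre-leptotene arrays, 7.82 to 9.69, overlapped those of spermatogonia. Spo11 itself had 4.30, 4.80 and 5.21 in Spo11-/- spermatogonia, pre-leptotene and leptotene/zygotene cells, against 4.60 to 6.69, 4.61 to 7.03 and 7.42 to 8.95 in the wild-type arrays of these fractions. Where its probes lie relative to the deletion is not given in the sources used here, and the Spo11-/- pre-leptotene array lay within its wild-type range. All 10 spermatid markers were above log2 4 in every wild-type fraction and 0 of 10 in the Spo11-/- arrays: their summed intensity was 62 to 70 in Spo11-/- cells, against 24932 to 213836 in the wild-type arrays of the same 3 fractions. The highest of these wild-type sums was that of a spermatogonia array, above the 91793 to 137001 of the round spermatid arrays. The Spo11-/- pre-leptotene array had all 9 leukocyte markers above log2 4, with a median of 10.03, against medians of 2.94 to 5.31 in wild-type pre-leptotene arrays. In spermatogonia it was the wild-type arrays that carried such markers: leukocyte medians were 3.22 in the Spo11-/- array and 5.54 to 7.84 in wild-type arrays, and stromal medians 3.61 in the Spo11-/- array and 5.90 to 9.73 in wild-type arrays. Wild-type leukocyte medians were below log2 4 in every array from leptotene/zygotene cells on. Summed Sertoli cell markers were 9480 in the Spo11-/- leptotene/zygotene array, against 4891 to 7233 in wild-type arrays. In pre-leptotene cells they were 10141 against 2184 to 5543, and in spermatogonia 2947, within the wild-type 2416 to 3881. The part of all these markers in comparisons with spermatogonia or between genotypes was not tested.

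The measured genes lie on 6 chromosomes (GRCm38.p6). Tdrd5 spans chr1:156255296-156304304, Tdrkh chr3:94413243-94434854, Tdrd7 chr4:45965027-46034766 and Tdrd9 chr12:111971488-112068854. Rnf17 and Tdrd3 share chromosome 14, at chr14:56402650-56525032 and chr14:87416178-87545508, and Tdrd1 lies at chr19:56826171-56870012. RefSeq promoters (250 bases before and 50 after a start site) matched 6 of the 8 genes, with 10 promoters in all, and Tdrd6 and Rnf17 were not among them. They were searched on both strands for TAACNG, the core bound by MYB factors such as MYBL1, which switches on piRNA genes at pachytene, for its palindromic form AACNGTT, and for CNCCTCAG, a motif linked to the meiotic entry factor STRA8.

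The promoters of the 4 genes called at mid-pachytene or in round spermatids are printed from RefSeq (GRCm38.p6), since their RNAs moved in different directions, with capitals for TAACNG. Tdrd5 is read on the minus strand at chr1:156303299-156303598, Tdrkh on the plus strand at chr3:94412994-94413293, Tdrd9 on the plus strand at chr12:111971309-111971608 and Tdrd3 on the plus strand at chr14:87416333-87416632.
Tdrd5: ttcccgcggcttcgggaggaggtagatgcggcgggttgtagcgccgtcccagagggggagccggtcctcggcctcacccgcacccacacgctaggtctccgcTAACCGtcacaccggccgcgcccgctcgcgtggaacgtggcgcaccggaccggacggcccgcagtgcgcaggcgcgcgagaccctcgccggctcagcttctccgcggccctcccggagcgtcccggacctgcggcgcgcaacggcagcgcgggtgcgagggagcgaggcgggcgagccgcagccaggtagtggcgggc
Tdrkh: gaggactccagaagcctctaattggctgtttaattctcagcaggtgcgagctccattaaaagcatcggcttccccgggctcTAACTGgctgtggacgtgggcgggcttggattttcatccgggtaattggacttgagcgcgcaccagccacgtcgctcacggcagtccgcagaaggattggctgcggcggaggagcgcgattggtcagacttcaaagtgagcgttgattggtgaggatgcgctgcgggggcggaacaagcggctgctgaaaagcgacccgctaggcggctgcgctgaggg
Tdrd9: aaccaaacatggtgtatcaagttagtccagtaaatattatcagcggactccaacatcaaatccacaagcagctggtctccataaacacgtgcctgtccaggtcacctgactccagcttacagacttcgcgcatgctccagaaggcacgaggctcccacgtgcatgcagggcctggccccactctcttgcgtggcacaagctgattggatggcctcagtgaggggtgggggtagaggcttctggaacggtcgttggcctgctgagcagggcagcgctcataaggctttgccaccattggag
Tdrd3: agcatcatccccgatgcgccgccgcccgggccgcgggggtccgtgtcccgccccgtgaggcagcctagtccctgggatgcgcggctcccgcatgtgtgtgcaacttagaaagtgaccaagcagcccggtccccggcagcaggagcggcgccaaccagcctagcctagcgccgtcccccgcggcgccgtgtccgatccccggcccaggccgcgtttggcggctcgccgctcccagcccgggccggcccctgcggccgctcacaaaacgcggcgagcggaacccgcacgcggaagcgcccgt
The Tdrd5 promoter held TAACCG beginning 148 bases before the start site and the Tdrkh promoter TAACTG beginning 169 bases before it. The first of 3 Tdrd7 promoters, at chr4:45965085-45965384 on the plus strand, held TAACNG on its minus strand and CNCCTCAG 119 bases before its start site. None of the 3 motifs was found in the windows of Tdrd1, Tdrd3 or Tdrd9. Of all 32851 promoters of this length, 23.3% held TAACNG, 4.45% AACNGTT and 7.94% CNCCTCAG, so matches of this kind are common. Tdrd5 and Tdrkh had TAACNG in their only promoter. Tdrd5 was called higher at mid-pachytene and lower in round spermatids, and Tdrkh lower in round spermatids. The part of the motif in either course was not tested.

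Tdrd5 rose at mid-pachytene and fell in round spermatids, by main probe sets the largest move of the set in each direction among the steps between neighbouring replicated fractions. It encodes a protein with Tudor and LOTUS domains that is needed for piRNA production in pachytene cells and for the chromatoid body. Mid-pachytene arrays had 10.23 and 10.92, against 7.90, 8.95 and 8.53 in leptotene/zygotene arrays. The groups did not overlap, and the change was 2.11 ± 0.46 (SE), a 4.33-fold rise (limma, adjusted p = 0.00305). Without mid-pachytene array 2 it was 1.77 and lost its call (limma, adjusted p = 0.0638). Round spermatids had 7.33, 8.09, 7.97 and 7.83, against 10.39 and 10.53 in diplotene cells. Every round spermatid array lay more than log2 2 below both diplotene arrays, and the change was -2.65 ± 0.43, a 6.29-fold fall (limma, adjusted p = 0.000366). Late pachytene gave 10.79, so the high level spanned the fractions from mid-pachytene to diplotene. Round spermatids averaged 7.80 ± 0.33 (SD, n = 4) and spermatogonia 7.52 ± 0.79 (SD, n = 4), a difference that did not pass the test (0.28 ± 0.35).

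Tdrd3 also rose at mid-pachytene and, by its main probe set, stayed high. TDRD3 reads methylated arginine on histones and RNA polymerase II, partners the topoisomerase TOP3B and is expressed in many tissues. Mid-pachytene arrays had 9.70 and 8.91, against 7.92, 7.94 and 7.98 in leptotene/zygotene arrays, with no overlap. The change was 1.36 ± 0.26, or 2.56-fold (limma, adjusted p = 0.00149), and without mid-pachytene array 1 it was 0.97, under the log2 change of 1 that a call needs (limma, adjusted p = 0.0256). Diplotene cells had 10.46 and 9.85, above both mid-pachytene arrays, by 0.85 ± 0.29, which was also under that minimum (limma, adjusted p = 0.0434). Round spermatids, at 9.67, 9.71, 9.78 and 9.76, lay below both diplotene arrays but did not pass the test (-0.42 ± 0.25). They remained called above spermatogonia, at 8.14, 7.95, 8.07 and 8.15, by 1.65 ± 0.20 (limma, adjusted p = 1.55e-06), where 30.2% of all genes were called higher. A second Tdrd3 probe set, described below, gave a difference of 0.30 here. Its means, 4.32 and 4.02, both lay near the lowest level counted as measured.

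Tdrd7 had a higher mean in each fraction from leptotene/zygotene onward. It encodes a LOTUS and Tudor protein of the chromatoid body that is needed for its assembly. Mean levels by fraction, in the order of development, were 9.53, 9.39, 10.30, 10.90, 11.14, 11.59, 12.29 and 12.74. No step between neighbouring fractions passed the test. Over the whole course round spermatids had 12.23, 12.66, 13.03 and 13.06, against 9.15, 9.36, 9.47 and 10.15 in spermatogonia, a difference of 3.21 ± 0.33 (limma, adjusted p = 2.16e-07). Diplotene cells were above leptotene/zygotene cells by 1.99 ± 0.43 (limma, adjusted p = 0.000792), where 26.1% of all genes were called higher. Round spermatids were above mid-pachytene cells by 1.61 ± 0.41 (limma, adjusted p = 0.00346; 21.3% of all genes), a call lost without mid-pachytene array 1 (1.12; limma, adjusted p = 0.0912).

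Tdrkh ran the other way. It encodes a Tudor protein anchored on mitochondria that brings PIWI proteins to the trimming of piRNA ends. Round spermatids had 7.10, 7.20, 6.85 and 6.57, against 8.51 and 7.60 in diplotene cells, with no overlap. The change was -1.13 ± 0.28, a 2.19-fold fall (limma, adjusted p = 0.00635), but without diplotene array 1 it was -0.67 and lost its call (limma, adjusted p = 0.182). Over longer spans, round spermatids were below spermatogonia, at 9.37, 9.20, 9.64 and 9.38, with a log2 difference of -2.47 ± 0.23 (limma, adjusted p = 5.22e-08), where 35.3% of all genes were called lower. They were also below mid-pachytene cells, by -1.91 ± 0.28 (limma, adjusted p = 3.53e-05; 26.6% of all genes), and diplotene cells were below leptotene/zygotene cells by -1.47 ± 0.29 (limma, adjusted p = 0.000383; 30.1%), or by -1.93 without diplotene array 1, which kept the call.

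Tdrd9 was called at none of the steps up to diplotene and fell in round spermatids. TDRD9 is a helicase with a Tudor domain that acts with the PIWI protein MIWI2 against transposons in fetal germ cells. Round spermatids had 9.64, 9.41, 9.72 and 9.56, against 10.60 and 10.66 in diplotene cells. The arrays did not overlap, and the change was -1.05 ± 0.29, a 2.06-fold fall just past the minimum (limma, adjusted p = 0.0139). It was not called without diplotene array 1, without diplotene array 2 or without round spermatid array 2 (changes of -1.07, -1.02 and -0.99; limma, adjusted p = 0.083, 0.074 and 0.0326). Against the mid-pachytene arrays, at 10.85 and 11.52, the fall was -1.60 ± 0.29 (limma, adjusted p = 0.000278).

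Tdrd1 varied most between arrays of the early fractions. It encodes a scaffold that binds the methylated arginines of the PIWI protein MILI. Spermatogonia had 6.02, 5.76, 6.47 and 7.70, pre-leptotene cells 6.36, 5.38 and 7.06, and leptotene/zygotene cells 6.46, 6.58 and 7.69. These 3 groups overlapped throughout. The single early pachytene array stood at 4.35, the lowest level of Tdrd1 on any array, against 7.32 and 7.49 in mid-pachytene cells. That difference was -3.06 ± 0.73 (limma, adjusted p = 0.0395), where 1.73% of all genes were called lower, and the difference from leptotene/zygotene cells was -2.56 ± 0.69 (limma, adjusted p = 0.0361; 3.99%). Tdrd5, at 7.94, was also called below mid-pachytene cells on this array (-2.63 ± 0.61; limma, adjusted p = 0.0365), a call lost without mid-pachytene array 2 (-2.29; limma, adjusted p = 0.188). The Tdrd1 calls were lost without either mid-pachytene array (limma, adjusted p = 0.0814 and 0.15) or without any leptotene/zygotene array (limma, adjusted p = 0.0528 to 0.0731). With 1 array of early pachytene, the stage and the array cannot be told apart, and the test lends that array the spread of the other fractions. Diplotene cells had 7.91 and 8.40, and round spermatids 7.50, 7.27, 7.45 and 6.89.

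Rnf17 was the flattest by its main probe set. It encodes a RING and Tudor protein needed for spermatid development that restrains amplification of piRNAs from transposons and genes in meiotic cells. Mean levels lay between 10.77 in diplotene and 11.65 in leptotene/zygotene cells. Round spermatids had 11.62, 11.36, 11.25 and 11.25, against 10.67 and 10.87 in diplotene cells, a difference of 0.60 ± 0.24 that was not called (limma, adjusted p = 0.0813). The 8 fraction means of each gene were also put in order of level. Since that order came from the same values, neighbours in it lie close by construction, and the gaps only describe the order. The order held 7 neighbouring pairs in each gene, 49 in all, of which 2 passed the test. These were Tdrd5, between diplotene and leptotene/zygotene cells (2.00 ± 0.46), and Tdrkh, between diplotene and round spermatid cells. In Tdrd1, Tdrd3, Tdrd7, Tdrd9 and Rnf17 no pair of neighbours passed the test, though fractions further apart were called in Tdrd3, Tdrd7 and Tdrd9. For Tdrd1 and Tdrd3 the widest of these gaps, each between the single early pachytene array and the fraction next above it, were 1.92 ± 0.69 (limma, adjusted p = 0.0526) and 1.11 ± 0.35 (limma, adjusted p = 0.132).

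**Figure D1:**
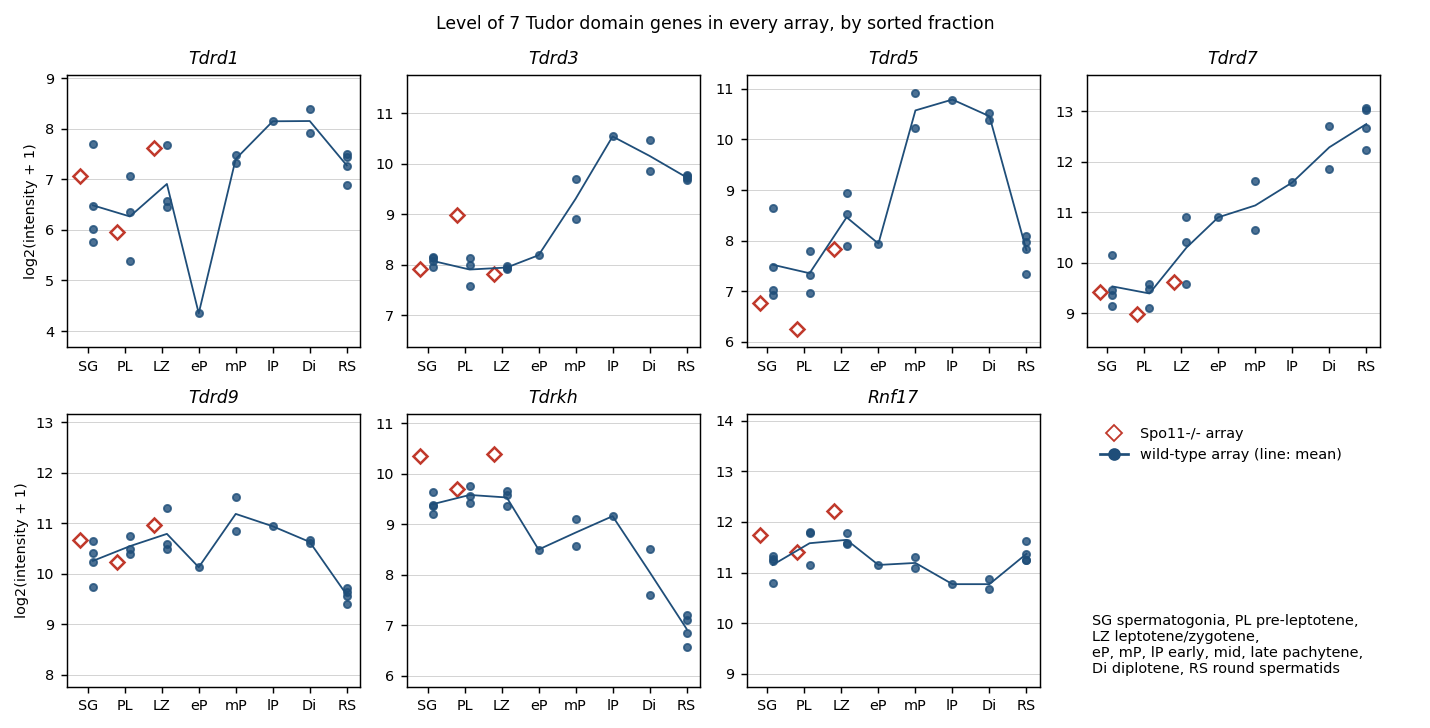
Level of each of the 7 measured genes, as log2(intensity + 1), in every array of each sorted fraction (SG spermatogonia, PL pre-leptotene, LZ leptotene/zygotene, eP, mP and lP early, mid and late pachytene, Di diplotene, RS round spermatids). Open red diamonds are the Spo11-/- arrays, filled blue circles the wild-type arrays and the line joins wild-type means. The Tdrd5 circles sit between 10.23 and 10.92 from mid-pachytene to diplotene and between 7.33 and 8.09 in round spermatids, while Tdrd7 climbs to 12.74 and Tdrkh drops to 6.93.

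Set side by side, the steps differed in how many of the 7 genes were called. Between pre-leptotene cells and spermatogonia 0 of 7 were called, with 0 at an unadjusted p below 0.05, where limma called 1.70% of all genes, and arrays overlapped in all 7 (no overlap in 8.92% of all genes). Blocking on the replicate number, in a fit without the early and late pachytene arrays, gave 627 called genes, against 223 in the main fit, and 0 of 7 members. The changes ran from -0.22 ± 0.45 (Tdrd1; 95% interval -1.18 to 0.75) to 0.43 ± 0.22 (Rnf17; -0.03 to 0.89). Between leptotene/zygotene and pre-leptotene cells 0 of 7 were called, with 2 at an unadjusted p below 0.05, where 3.11% of all genes were called. Those 2 were Tdrd5 (1.11 ± 0.41; limma, adjusted p = 0.203) and Tdrd7 (0.91 ± 0.38; limma, adjusted p = 0.31), and their arrays did not overlap, as held for 20.3% of all genes.

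Mid-pachytene against leptotene/zygotene cells gave 2 of 7 higher and 0 lower, where 14.2% of all genes were higher and 15.2% lower. The median change of the 7 was 0.50, against -0.07 over all genes. Tdrkh, at 9.10 and 8.57, lay below all leptotene/zygotene arrays but was not called (-0.69 ± 0.29; limma, adjusted p = 0.0782), and Tdrd7 changed by 0.84 ± 0.43. Arrays did not overlap for 4 of 7 genes, against 60.4% of all genes. Diplotene against mid-pachytene cells gave 0 of 7 called, with 3 at an unadjusted p below 0.05, where 21.5% of all genes were called. Beside Tdrd3 these were Tdrd7 (1.15 ± 0.47; limma, adjusted p = 0.0929) and Tdrkh (-0.78 ± 0.32; limma, adjusted p = 0.0938). Arrays did not overlap for 6 of 7 genes, against 60.2% of all genes. Leaving out 1 array took a member past the test here: Tdrkh without diplotene array 1 (-1.24), Tdrd3 without diplotene array 2 (1.16) or mid-pachytene array 1 (1.24) and Tdrd7 without mid-pachytene array 2 (1.64).

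Round spermatids against diplotene cells gave 3 of 7 lower and 0 higher, where 12.0% of all genes were lower and 12.5% higher. The count depended on the scaling: under quantile normalization Tdrd5 kept its call (-2.40), but Tdrd9 (-0.98) and Tdrkh (-0.88) fell under the minimum change. The median change of the 7 was -0.88, against -0.01 over all genes. Arrays did not overlap for 6 of 7 genes, against 42.9% of all genes. Of the 6, Rnf17 alone was higher in round spermatids. Tdrd1 lay below both diplotene arrays without a call (-0.88 ± 0.51; limma, adjusted p = 0.242).

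**Figure D2:**
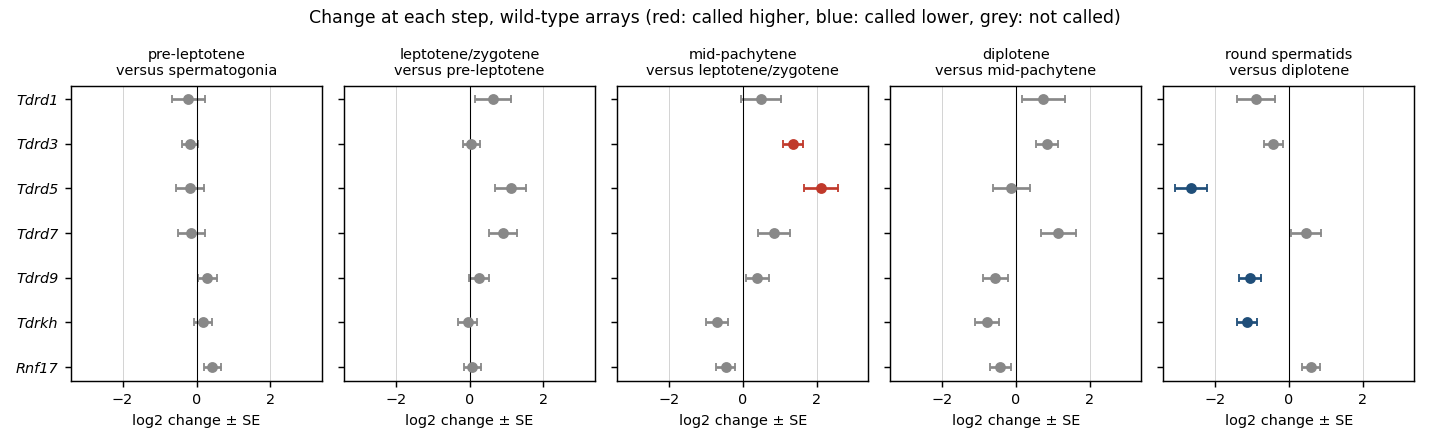
Log2 change of each gene (point, with its SE as a bar) at the 5 steps between neighbouring wild-type fractions with at least 2 arrays, later fraction minus earlier. Coloured points were called: Tdrd3 and Tdrd5 higher at mid-pachytene, and Tdrd5, Tdrd9 and Tdrkh lower in round spermatids.

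The partners of these proteins were read from lists of related genes. Of 15 PIWI and piRNA factors on the arrays, 4 were higher and 1 lower at mid-pachytene, where 14.2% of all genes were higher and 15.2% lower, among them Mybl1 itself (2.10 ± 0.40; limma, adjusted p = 0.00134). In diplotene against mid-pachytene cells 0 of 15 were higher and 4 lower, where 6.98% of all genes were higher and 14.5% lower. These included Btbd18, which helps transcribe pachytene piRNA loci (-3.66 ± 0.42), the piRNA precursor helicase gene Mov10l1 (-1.80 ± 0.29) and the mitochondrial piRNA factor Gpat2 (-1.05 ± 0.33, a call kept under 9 of 14 alternatives). In round spermatids 7 of 15 were lower than in diplotene cells and 0 higher, where 12.0% of all genes were lower and 12.5% higher. Gpat2 changed by -1.84 ± 0.28, Piwil1 by -2.09 ± 0.33 and Mov10l1 by -1.31 ± 0.25 (limma, adjusted p = 0.000222, 0.00028 and 0.00106). The median over the 15 was -0.51, beside -0.88 for the 7 Tudor genes.

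Of 6 other genes with a Tudor domain, 1 was lower and 1 higher in round spermatids than in diplotene cells, close to the 12.0% and 12.5% of all genes. Stk31, a Tudor protein with a kinase-like domain, had a mean of 9.14 in round spermatids and 11.12 in diplotene cells (-1.98 ± 0.35; limma, adjusted p = 0.000667). Akap1, which anchors protein kinase A on mitochondria, had 11.14 and 8.71 in these fractions (2.43 ± 0.67; limma, adjusted p = 0.0126). Snd1, a nuclease-like protein of the RNA silencing complex, was lower in diplotene than in mid-pachytene cells (-2.16 ± 0.51). Tdrd12, whose product works with piRNA factors, was not called at mid-pachytene (0.87 ± 0.27; limma, adjusted p = 0.0231).

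The 3 arginine methylation genes gave 2 lower in diplotene than in mid-pachytene cells and 2 lower in round spermatids than in diplotene cells, with 0 higher at either step, where 14.5% and 12.0% of all genes were lower. Each count includes Prmt1, whose call was kept under 10 of 14 alternatives at diplotene and 9 of 16 in round spermatids. Wdr77 was lower at mid-pachytene (-1.29 ± 0.25) and again at diplotene (-1.50 ± 0.28; limma, adjusted p = 0.00121), and Prmt5 in round spermatids (-1.37 ± 0.38; limma, adjusted p = 0.0134). Of 7 other RNA factors of the chromatoid body, 1 was higher and 3 lower in round spermatids than in diplotene cells, where 12.5% of all genes were higher and 12.0% lower. The motor gene Kif17 was higher (2.79 ± 0.62), and the RNA decay gene Upf1 (-1.61 ± 0.28) and the decapping gene Dcp1a (-1.38 ± 0.28) were lower. Of the 4 partners of TDRD3, Fmr1, the gene for the translation regulator FMRP, fell at the step where Tdrd3 rose. It averaged 8.66 in mid-pachytene and 10.87 in leptotene/zygotene cells (-2.22 ± 0.38; limma, adjusted p = 0.000648). It was lower again in diplotene than in mid-pachytene cells (-3.30 ± 0.41) and higher in round spermatids than in diplotene cells (1.54 ± 0.36).

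Rnf17 had 4 probe sets, and they gave different courses. By 1459275_at the mid-pachytene arrays had 10.31 and 11.19, against 7.84 to 8.57 in leptotene/zygotene cells, a rise of 2.65 ± 0.34 (limma over all probe sets, adjusted p = 0.000113). Round spermatids, at 8.75 to 9.07, lay below the diplotene arrays, at 10.18 and 10.40 (-1.33 ± 0.32; limma, adjusted p = 0.00692). In the same fit the main probe set, 1438820_at, had the opposite sign at both steps without a call (-0.46 ± 0.26 and 0.60 ± 0.25). Over the 8 fraction means the pair had a Pearson correlation of -0.68. The other probe sets, 1425709_at and 1425708_at, were called at none of the 5 steps. So a course of Rnf17 with a peak from mid-pachytene to diplotene and one without it were both measured, and which transcripts each probe set detects was not tested.

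Of the 3 Tdrd3 probe sets, 1434869_at rose with the main one at mid-pachytene (1.44 ± 0.44; limma, adjusted p = 0.0239), and its mean was 7.35 in the late pachytene array. It then fell in round spermatids, which had 4.22 to 4.47, close to log2 4, against 5.86 and 6.73 in diplotene cells (-1.97 ± 0.42; limma, adjusted p = 0.00291). The fall by the main set, 1451545_at, was -0.42 ± 0.25 and was not called. The third set, 1441496_at, stayed below log2 4 in every array and failed the filter, as did the second of 2 Tdrd7 probe sets. Tdrd1, Tdrd5, Tdrd9 and Tdrkh had 1 probe set each.

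**Figure D3:**
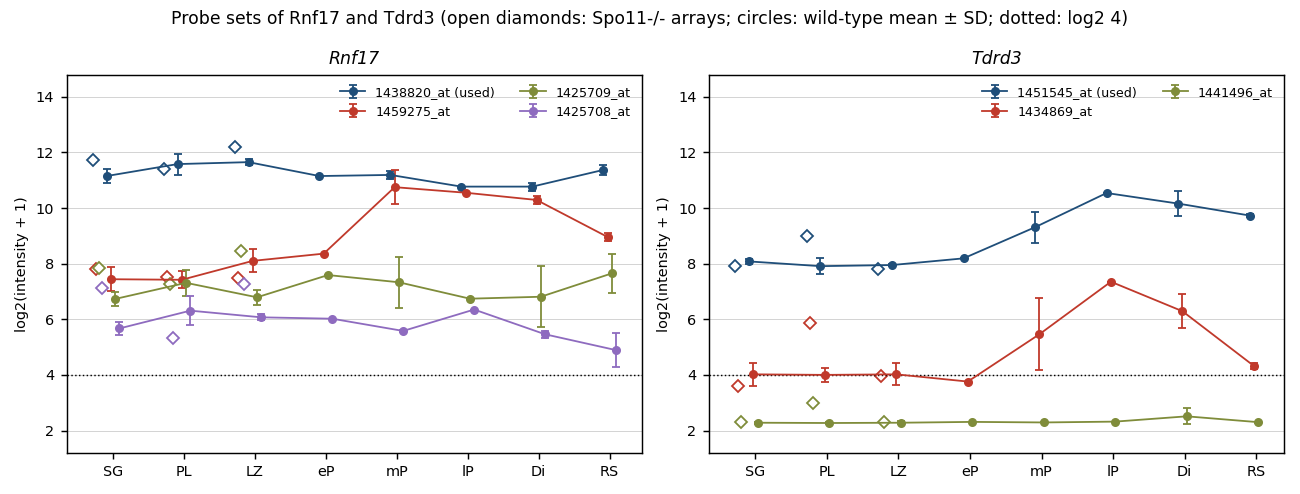
Levels of the 4 Rnf17 and 3 Tdrd3 probe sets by fraction, with fractions in order of development from spermatogonia (SG) to round spermatids (RS), as log2(intensity + 1). Open diamonds are the Spo11-/- arrays, circles the wild-type means with their SD and the dotted line is log2 4. Rnf17 by 1459275_at peaks at 10.75 in mid-pachytene cells, while the main set stays between 10.77 and 11.65, and Tdrd3 by 1434869_at returns to 4.32 in round spermatids.

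In Spo11-/- cells none of the 7 measured members was called as shifted across the 3 early fractions. With 1 Spo11-/- array a fraction, genotype and any difference in strain or collection cannot be told apart. Of the 7 genes 0 were called, with 2 at an unadjusted p below 0.05, where limma called 11.7% of all genes (1.63% higher and 10.0% lower). The median shift of the 7 was 0.25, against -0.05 over all genes. Tdrkh was the member nearest to a call. It had 10.35, 9.69 and 10.40 in Spo11-/- spermatogonia, pre-leptotene and leptotene/zygotene cells, against wild-type ranges of 9.20 to 9.64, 9.43 to 9.75 and 9.36 to 9.65. It lay above every wild-type array in spermatogonia and leptotene/zygotene cells, by 0.71 and 0.75, and within the range in pre-leptotene cells. Its shared shift was 0.65 ± 0.19 (limma, adjusted p = 0.0335; 95% interval 0.25 to 1.05), under the log2 change of 1. The pre-leptotene array is the one with the leukocyte markers. Spermatid markers summed to 62 to 70 in the Spo11-/- arrays and 24932 to 213836 in wild-type arrays of these fractions, and Tdrkh was lowest in round spermatids (mean 6.93). The part of these markers in the Tdrkh levels was not tested.

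Tdrd5 had 6.76, 6.25 and 7.84 in the Spo11-/- arrays, against 6.93 to 8.65, 6.96 to 7.79 and 7.90 to 8.95 in the wild-type arrays. It was below every wild-type array in each of the 3 fractions, as were 15.5% of all genes, by 0.17, 0.71 and 0.05 on the log2 scale. The widest gap, 0.71, was on the pre-leptotene array, where leukocyte markers summed to 25172, against 108 to 724 in wild-type arrays. The shared shift was -0.83 ± 0.35 and was not called (limma, adjusted p = 0.129; 95% interval -1.58 to -0.07). The markers of later stages moved the same way: 2 to 3 of 7 pachytene markers were above log2 4 in Spo11-/- arrays, against 7 of 7 in the wild-type fractions, with summed intensities of 722 to 1231 against 2592 to 35388. Ldhc, Pgk2, Adam2 and Spata16 were below log2 4 in all Spo11-/- arrays, as were all 10 spermatid markers. The part of the leukocyte, pachytene and spermatid markers in the lower Tdrd5 levels was not tested.

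Tdrd3 had its highest Spo11-/- level in pre-leptotene cells, but the differences between fractions did not pass the test. It had 8.98 in Spo11-/- pre-leptotene cells, 0.85 above the highest wild-type array (7.59 to 8.13), and 7.92 and 7.81 in Spo11-/- spermatogonia and leptotene/zygotene cells, each below every wild-type array. The pre-leptotene difference was 1.07 ± 0.28 (limma, adjusted p = 0.0436), an estimate that assumes that the single Spo11-/- array varies like the wild-type arrays and that has no replicate check. The difference between this effect and that in spermatogonia was 1.23 ± 0.39 and did not pass (limma, adjusted p = 0.164), nor did the difference between leptotene/zygotene and pre-leptotene cells (-1.22 ± 0.39; limma, adjusted p = 0.222). The second Tdrd3 probe set also stood above its wild-type range on this array, at 5.86 against 3.76 to 4.27. This is the array with the leukocyte markers, whose summed intensity was 25172, against 108 to 724 in wild-type pre-leptotene arrays. On it 5 of 6 stromal markers were above log2 4 as well, and Sertoli cell markers summed to 10141, against 2184 to 5543. Their part in the Tdrd3 level was not tested. Without this array the shared shift of Tdrd3 was -0.15, against 0.25 ± 0.22 with it.

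Rnf17 had 11.74, 11.40 and 12.21 in the Spo11-/- arrays, above every wild-type array in spermatogonia (10.79 to 11.32) and leptotene/zygotene cells (11.57 to 11.79) and within the range in pre-leptotene cells (11.14 to 11.81). Its shared shift was 0.33 ± 0.21 (limma, adjusted p = 0.31). Probe sets 1425709_at and 1425708_at were likewise above every wild-type array in spermatogonia and leptotene/zygotene cells, 1425709_at by the wider margin in leptotene/zygotene cells (8.46 against 6.52 to 7.06). The shift of 1425709_at was 0.92 ± 0.30 (limma, adjusted p = 0.062). By 1425708_at the levels were 7.11 against 5.37 to 5.90 in spermatogonia and 7.28 against 5.99 to 6.19 in leptotene/zygotene cells. In pre-leptotene cells 1425708_at was below every wild-type array (5.33 against 5.95 to 6.89). Probe set 1459275_at, the one with the pachytene rise, was within the wild-type range in spermatogonia and pre-leptotene cells and below it in leptotene/zygotene cells (7.50 against 7.84 to 8.57).

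Tdrd7 had 9.43, 8.99 and 9.62 in Spo11-/- cells, with a shared shift of -0.39 ± 0.28, Tdrd9 a shift of 0.10 ± 0.24 and Tdrd1 a shift of 0.33 ± 0.45, none of them called. By fraction, 3 of 7 genes were above every wild-type array in spermatogonia (24.5% of all genes) and 2 below (29.3%). In pre-leptotene cells 1 was above (27.4%) and 3 below (42.9%), and in leptotene/zygotene cells 2 were above (27.9%) and 2 below (36.1%). Tdrd5 was the 1 member below in all 3 fractions, and 0 of 7 were above in all 3 (6.45% of all genes). By its main probe set no member lay outside its wild-type range by log2 1 or more. Of all genes, 0.659% were above and 9.27% below by that margin in spermatogonia, 7.44% and 9.47% in pre-leptotene and 1.50% and 11.5% in leptotene/zygotene cells.

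**Figure D4:**
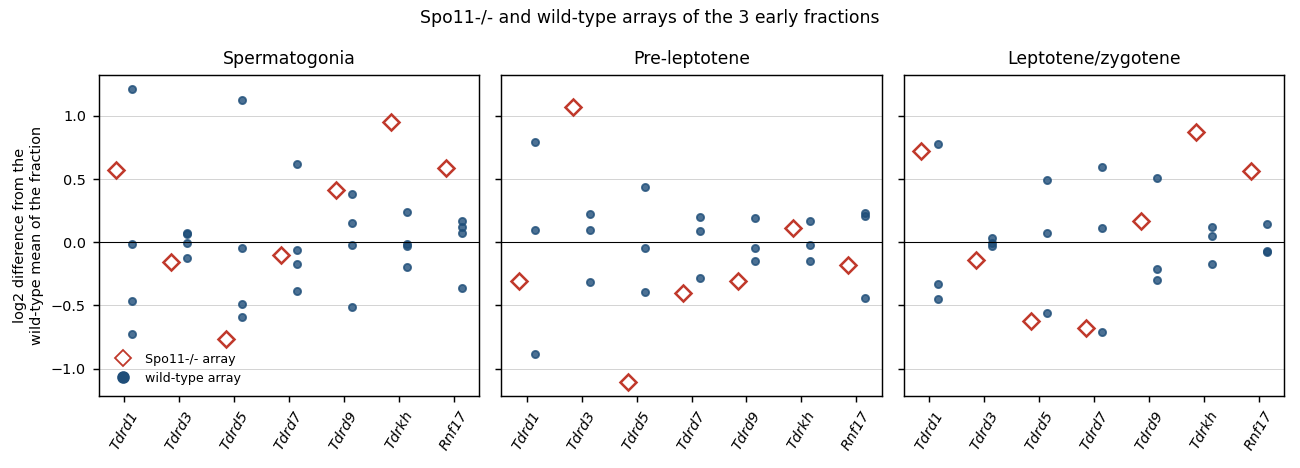
Difference of each array from the wild-type mean of its fraction, on the log2 scale, for the 7 genes in the 3 early fractions. Open red diamonds are the Spo11-/- arrays and filled blue circles the wild-type arrays. Tdrkh stands 0.95 and 0.87 above the wild-type mean in spermatogonia and leptotene/zygotene cells, Tdrd3 stands 1.07 above it in pre-leptotene cells, and Tdrd5 lies below every wild-type array in all 3.

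Of 15 PIWI and piRNA factors 3 were lower in Spo11-/- cells and 0 higher, where 10.0% of all genes were lower and 1.63% higher, with a median shift of -0.32. In the other lists 1 gene each was lower and 0 higher, small counts beside the same share. Piwil1, the PIWI gene of pachytene cells and spermatids, averaged 5.80 over the Spo11-/- arrays and 8.24 over the wild-type arrays (-2.53 ± 0.34; limma, adjusted p = 0.000564). Pld6, a mitochondrial piRNA nuclease gene, shifted by -1.05 ± 0.20, and Gtsf1, a PIWI cofactor gene, by -1.54 ± 0.34. Of the 3 arginine methylation genes Prmt1 was lower (-2.19 ± 0.21; limma, adjusted p = 5.40e-05). Akap1 was lower among the 6 other Tudor genes (-4.02 ± 0.67) and Fxr2, a relative of Fmr1, among the 4 partners of TDRD3 (-2.64 ± 0.33). All 10 spermatid markers were below log2 4 in these arrays, and their part in the lower levels was not tested.

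The courses of the 7 genes were also set against each other and against all tested genes, by Pearson correlation over the 8 wild-type fraction means, which share arrays and scaling. Tdrd3 and Tdrd7 were the most alike pair (0.83), then Tdrd3 and Tdrd5 (0.77), and Tdrd7 and Tdrkh the most opposed (-0.86). The genes outside the set named next are the 2 highest for each member among all tested genes. Their correlations are thus maxima of a search over only 8 means, and they test nothing. Tdrd5 was closest to Mgat5 (0.9929) and Pkd2l1 (0.9889), with means of 10.33 and 9.55 at mid-pachytene. Tdrd7 was closest to Ide (0.9966) and Asb4 (0.9960), and Tdrkh to Als2cl (0.9948) and Tstd2 (0.9940). For Tdrd3 these were Dnajc30 (0.9967) and Nupl2 (0.9961), for Tdrd9 Epb41l5 (0.9768) and Usp40 (0.9763), and for Tdrd1 Tbc1d5 (0.9820) and Kdm2b (0.9778). Rnf17, by its main probe set, had the weakest matches, Igsf9 (0.9493) and Ncaph (0.9467).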

How the data were processed

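RNA was measured on 23 arrays, 3 Spo11-/- and 20 wild-type. The deposited series table holds intensity values on a linear scale, made with GCRMA by the authors, per the submitters' processing notes, and no step was undone. The members and lists were chosen with earlier results of these data known. Of 45037 probe sets, 34945 carry a single symbol in the platform annotation, for 18193 genes, and the probe set with the highest wild-type mean stood for each gene. Values were taken as log2(value + 1). Genes at log2 4 or more in at least 2 arrays were fitted in limma 3.58.1 (R 4.3.3), with Benjamini-Hochberg adjustment over all genes tested. One fit had a mean per wild-type fraction over 20 arrays. The other had fraction plus genotype over 13 arrays. The number of arrays limits the precision. Both fits were tested on simulated data. Alternatives changed the probe set, scaling, filter, pseudocount, array weights, eBayes settings, arrays in the fit and replicate block, and left out each array in turn.

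Named were all members, Spo11, up to 3 called genes per list and comparison (those of smallest adjusted p; where none passed, up to 1 as a value), and for each member the 2 genes of most similar course. Same-numbered pre-leptotene and spermatogonia arrays deviated together (correlations 0.526, 0.652 and 0.228 over genes), so a fit blocked on the replicate number was also read for this step. That fit left out early and late pachytene, and its term for each replicate number was shared by all other wild-type fractions. The changes, their SEs and the share of all genes printed for this step are those of the fit without the block. For the other steps the blocked fit is given only as an alternative, since a correlation over genes was below 0.1 or there were only 2 pairs.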

Additional observations from a re-analysis of the deposited data

How the results depend on the processing

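With few arrays per fraction, the limits lie in the replicates: mid-pachytene and diplotene have 2 arrays each, early and late pachytene 1. The alternatives for single probe sets, for the longer contrasts and for named list genes, the choice by largest variance in the first step and in the order of levels, and the order without spermatogonia arrays 1 and 2 were chosen after seeing the data.

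The count of called members changed as follows. Mid-pachytene against leptotene/zygotene gave 3 by the probe set of largest variance, with Rnf17 added. Diplotene against mid-pachytene gave 1 with no minimum change (Tdrd3, 0.85) and 1 with the replicate block (Tdrd7, 1.15, limma adjusted p = 0.00667). Round spermatids against diplotene gave 5 by the probe set of largest variance and 1 under quantile normalization, which took Tdrd9 to -0.98 and Tdrkh to -0.88. The fit on these 2 fractions alone left Tdrkh at an adjusted p of 0.0551 (limma). Spo11-/- against wild type gave 1 with no minimum change (Tdrkh, 0.65) and 1 in pre-leptotene cells alone (Tdrd3, 1.07). Of 49 neighbouring pairs, 8 passed by the probe set of largest variance and 1 under quantile normalization. Leaving out each replicate in turn gave 0 to 0 for the first 2 steps and for the genotype, 1 to 2 at mid-pachytene, 1 to 1 at diplotene, 1 to 3 in round spermatids and 1 to 3 for the order of levels. The replicate block, with the number of the wild-type arrays, changed no other call of a member. For leptotene/zygotene against pre-leptotene, where same-numbered arrays correlated at 0.591, 0.0828 and 0.272 over genes and 0.622, 0.221 and 0.4 over probe sets, the block gave Tdrd5 1.11 and Tdrd7 0.91 (limma, adjusted p = 0.0513 and 0.0332), the second under the minimum change. It raised the genes called over the whole table to 627 for pre-leptotene against spermatogonia. No paired analysis was possible for the genotype because the Spo11-/- arrays carry no replicate number.

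Signs turned for changes that were not called. For pre-leptotene against spermatogonia, array weights gave Tdrd1 0.23, Tdrd5 0.26 and Tdrd7 0.09, and the replicate block gave Tdrd5 0.02 and Tdrd7 0.02. For Rnf17, the probe set of largest variance, 1459275_at, gave -0.03 at this step, 2.65 at mid-pachytene, -1.33 in round spermatids and -0.04 in Spo11-/- cells. By 1425709_at Rnf17 was -0.52 at leptotene/zygotene and 0.54 at mid-pachytene, and by 1425708_at -0.24 at leptotene/zygotene and -0.57 in round spermatids. In Spo11-/- cells Tdrd3 gave -0.02 with array weights, -0.16 in spermatogonia alone and -0.14 in leptotene/zygotene cells alone. In pre-leptotene cells alone Tdrd1 gave -0.31, Tdrd9 -0.30 and Rnf17 -0.18, and Tdrd9 gave 0.00 without spermatogonia arrays 1 and 2. Leaving out single arrays, pre-leptotene against spermatogonia ran from -0.61 to 0.23 for Tdrd1, -0.39 to 0.20 for Tdrd5 and -0.27 to 0.07 for Tdrd7. Leptotene/zygotene against pre-leptotene ran from -0.15 to 0.19 for Rnf17, -0.12 to 0.15 for Tdrd3, -0.01 to 0.39 for Tdrd9 and -0.13 to 0.03 for Tdrkh. Tdrd5 at diplotene ran from -0.46 to 0.23, and in Spo11-/- cells Tdrd3 ran from -0.15 to 0.47 and Tdrd9 from -0.07 to 0.29. The causes were not tested.

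Over all genes the counts called ranged from 0 to 830 for pre-leptotene (main 223), 0 to 748 for leptotene/zygotene (407), 1466 to 4481 for mid-pachytene (3839), 1108 to 3410 for diplotene (2812), 1690 to 3652 for round spermatids (3199) and 417 to 1955 for Spo11-/- cells (1398).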
